A study of Mus musculus with 16 samples.

Results

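Macrophages given high glucose and oxidised low-density lipoprotein (ox-LDL) together were compared with macrophages given neither, to measure the net change in RNA levels from both additions. The comparison used 8 of the 16 samples of the series, chosen by their labels: 4 of the group H_O and 4 of the group L_C. All came from wild-type C57BL/6 mice, 8 weeks old, whose peritoneal cavity had been injected with 6% starch to draw macrophages in. H_O cells spent 48 h in medium with 33 mmol/L glucose and ox-LDL, which the labels put at 50 mg/ml, although the unit is doubtful. L_C cells spent 48 h in low glucose medium, of a concentration not stated in the sources used here, with 27.5 mM mannitol as the osmotic control. The H_O label names no mannitol, so a change from leaving out mannitol cannot be told apart from a change from adding glucose or ox-LDL. The 4 L_O samples (low glucose with ox-LDL) and the 4 H_C samples (high glucose without ox-LDL) served to show at which addition a level moved. Their labels name no mannitol either, so their changes against L_C carry the same limit. Whether the 4 replicates of a group were separate mice or separate cultures is not said, and every p-value here rests on the spread among the libraries alone, part or all of which may be technical.

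Macrophages take up ox-LDL through scavenger receptors, break it down in lysosomes and store the freed cholesterol as esters in lipid droplets. Cells filled in this way are called foam cells and are typical of atherosclerotic plaques. Sterols that build up in a cell shut down SREBP2, the transcription factor of cholesterol synthesis, and oxysterols switch on LXR, which drives cholesterol export. Oxidised lipids also act on NRF2, the main factor of the antioxidant response, and on PPAR factors, which control fatty acid storage and burning. Glucose is a fuel and an osmolyte, and the factor NFAT5 raises osmolyte transporters when the medium is hypertonic.

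Library totals over the 16 samples lay between 32596640 and 41712885 counts. General macrophage genes were high in all 16 libraries, with Adgre1 (F4/80) at 360 to 554 CPM (counts scaled to 1000000 per library) and Csf1r, the receptor for macrophage colony-stimulating factor, at 564 to 900.0 CPM. Gata6 and Timd4, which define resident large peritoneal macrophages, were low, at 2.25 to 5.92 and 0.197 to 2.55 CPM. L_C replicate 4 stood apart from the other L_C libraries. Genes of the mitochondrial genome held 3.71% of its counts, where the other L_C libraries had 1.48 to 1.95% and H_O 1.86 to 2.30%, and ribosomal protein genes held 1.39%, where the other L_C libraries had 1.77 to 1.81%. Results are therefore given with and without it.

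Both additions together changed the level of 4129 of 13527 tested entries, 30.5%, by edgeR's quasi-likelihood test at an adjusted p under 0.05. Of these, 1955 (14.5% of the tested entries) were higher in H_O and 2174 (16.1%) were lower. Most changes were small: the median size among the called entries was 0.41 on the log2 scale, 226 entries (1.67%) were at least 2-fold higher and 428 (3.16%) at least 2-fold lower. The median log2 change of all tested entries was 0.0081, the reference for the list medians given below. All 4 H_O libraries lay above all 4 L_C libraries for 1923 entries (14.2%) and below them for 2008 (14.8%). With no scaling beyond library totals, that median became 0.11 and the share of higher entries among those called 68.5%, against 47.3% with TMM scaling.

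**Figure D1:**
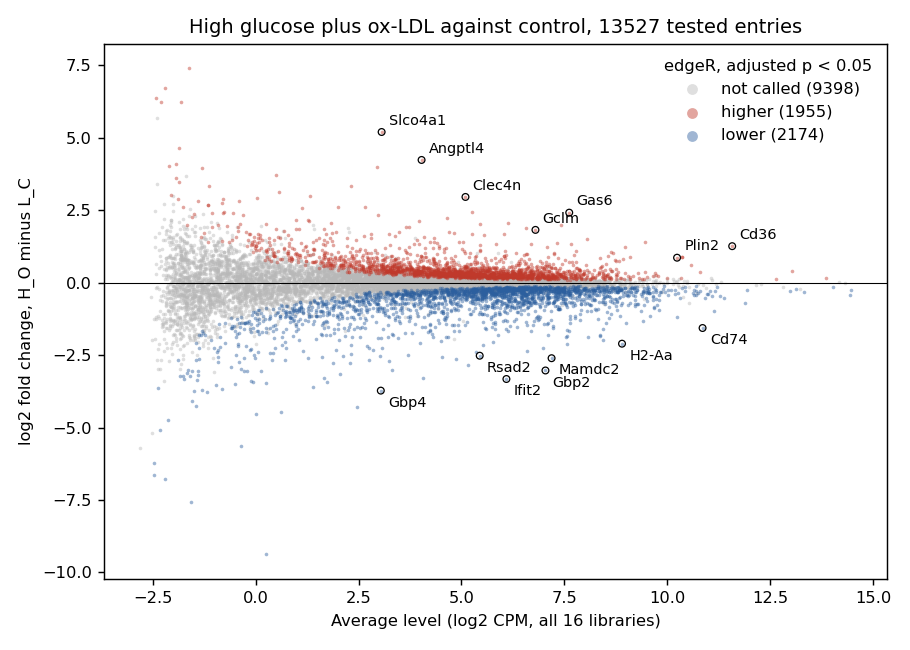
Each point is 1 tested entry, with its average level over the 16 libraries (log2 CPM) on the x axis and its log2 change, H_O minus L_C, on the y axis; red marks the 1955 higher and blue the 2174 lower entries. The labelled genes run from Slco4a1 at 5.20 to Gbp4 at -3.72, and the 428 entries at least 2-fold lower outnumber the 226 at least 2-fold higher.

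Without L_C replicate 4, 2231 of 13734 tested entries (16.2%) were higher and 2330 (17%) lower, 231 (1.68%) and 403 (2.93%) of them by at least 2-fold. Of the calls made with all libraries, 1759 higher and 1973 lower ones were made again, 196 and 201 were lost, and none turned over. A further 467 higher and 353 lower calls were gained. Leaving this library out moved the log2 change by a median of 0.068. The fold moved by over 1.5 times for 172 entries, 12 of them among those called with all libraries. The 13 tested genes of the mitochondrial genome, which code for subunits of the respiratory chain, were the group most tied to it among the lists followed. With all libraries none was called, at a median log2 change of -0.21, and without it 3 were higher (mt-Co1, mt-Nd1 and mt-Cytb, chosen for naming after their values were seen), at a median of 0.22. The level of mt-Nd5 was 1255, 1364, 1408 and 4262 CPM in L_C and 1283, 1252, 1297 and 1318 CPM in H_O. Only L_C replicate 4 was far from the rest, and its log2 change of -0.69 ± 0.27 (adjusted p = 0.0624) became -0.060 without it. The change of mt-Nd6 went in the same way from -0.74 ± 0.28 (adjusted p = 0.0523) to -0.10. Both were called lower when L_C replicate 1, 2 or 3 was left out instead, at adjusted p down to 0.0188 for mt-Nd5 and 0.0141 for mt-Nd6.

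**Figure D2:**
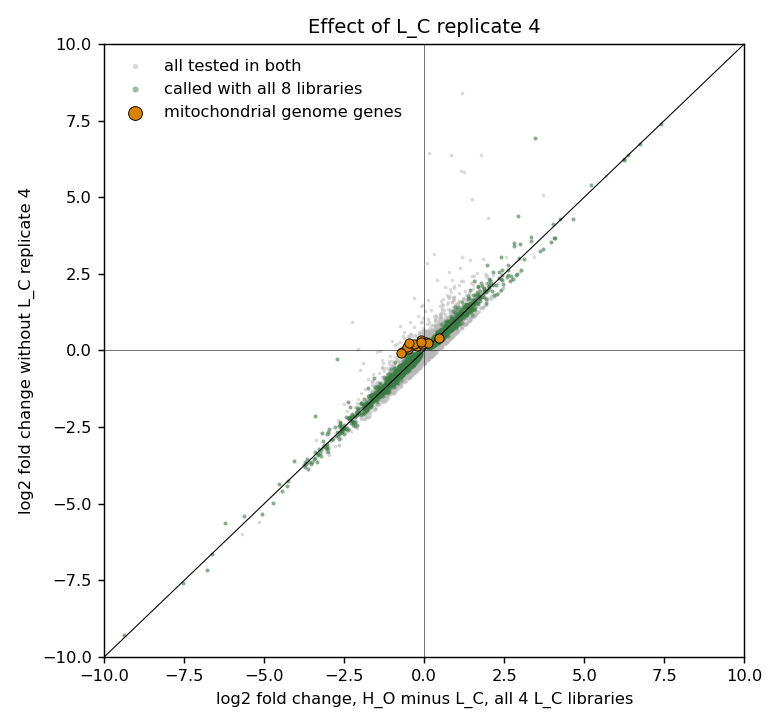
Each point is 1 entry, with its log2 change, H_O minus L_C, from all 4 L_C libraries on the x axis and without L_C replicate 4 on the y axis; green marks entries called with all libraries and orange the 13 genes of the mitochondrial genome. Points lie near the line of equal values, with a median move of 0.068, while the orange points shift upwards from a median of -0.21 to 0.22.

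Slco4a1, Angptl4, Clec4n and Gas6 were among the largest rises. The rule took the 14 largest rises and 14 largest falls of called genes whose mean log2 CPM reached 3 and whose H_O and L_C libraries did not overlap. Slco4a1, an organic anion transporter (chromosome 2, 180456245 to 180474867, mm10), rose most, from 0.429, 0.719, 0.592 and 0.875 CPM in L_C to 27.6, 29.01, 18.1 and 23.2 CPM in H_O. All H_O libraries were far above all L_C libraries, with a log2 change of 5.20 ± 0.27 (SE, adjusted p = 7.44e-11), or 36.9-fold. Angptl4, a secreted inhibitor of lipoprotein lipase (chromosome 17, 33773750 to 33781830), went from 1.07, 2.52, 1.72 and 2.08 CPM to 32.8, 37.3, 37.8 and 32.9 CPM. The H_O libraries lay close together, and the log2 change was 4.24 ± 0.21 (adjusted p = 6.64e-11). Clec4n, the fungal pattern receptor dectin-2 (chromosome 6, 123229843 to 123247021), rose from 8.24, 9.34, 7.49 and 9.60 CPM to 68.2, 76.7, 63.6 and 62.3 CPM, a log2 change of 2.96 ± 0.084 (adjusted p = 3.9e-14). Gas6, a bridge between dying cells and the TAM receptors of phagocytes (chromosome 8, 13465374 to 13494490), rose from 61.2, 61.5, 60.9 and 70.5 CPM to 353, 327, 347 and 333 CPM, a log2 change of 2.42 ± 0.053 with the smallest adjusted p of the genes followed here (1.62e-15). Neither gene had an H_O library near the L_C range.

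The other large rises were spread over several functions. S100a4, a calcium-binding protein (chromosome 3, 90603771 to 90606045), stood at 14.4, 16.6, 18.4 and 4.68 CPM in L_C and 80.4, 65.2, 67.2 and 81.2 CPM in H_O, a log2 change of 2.45 ± 0.26 (adjusted p = 6.61e-07). L_C replicate 4 was the lowest library and the change without it was 2.16. In all, 47.4% of the gene's 50-base stretches also occur in other annotated transcripts, so its counts are uncertain. The predicted gene Gm42674 overlaps 51.7% of its exon bases. Dusp6 rose by 2.23, the collagenase gene Mmp8 by 2.14, F13a1 (clotting factor XIII A chain) by 2.03 and Susd1 by 1.91 on the log2 scale. Lars2, the mitochondrial leucyl-tRNA synthetase, had 30.01, 38.4, 31.2 and 44.5 CPM in L_C and 50.9, 198, 247 and 111 CPM in H_O. Its H_O libraries spread widely, and the log2 change of 2.07 ± 0.34 (adjusted p = 0.00011) had a wide error.

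Most of the 14 largest falls were of genes known to be induced by interferon: Gbp4, Ifit2, Gbp2, Iigp1, Tgtp1, Tgtp2, Rsad2, Gbp5, Il18bp and the itaconate enzyme gene Acod1. In bulk RNA, fewer cells of a type and less RNA per cell cannot be told apart, and summed markers of several other cell types were lower in H_O too, with values given below, so their part in these falls was not tested. Mamdc2, a matrix-associated proteoglycan gene (chromosome 19, 23302609 to 23448442), belonged to none of the gene lists and fell from 267, 221, 239.7 and 234 CPM to 43.2, 28.4, 38.8 and 47.6 CPM, a log2 change of -2.60 ± 0.12 (adjusted p = 2.18e-11). Clic5, an intracellular chloride channel gene (chromosome 17, 44188584 to 44280172), fell from 46.5, 67.96, 45.04 and 45.2 CPM to 7.32, 10.2, 8.37 and 8.39 CPM, with a log2 change of -2.58 ± 0.14 (adjusted p = 1.73e-10). Slamf8, a receptor of the SLAM family, went from 235, 265, 228 and 221 CPM to 44.5, 62.6, 45.7 and 44.99 CPM, a log2 change of -2.26 ± 0.12 (adjusted p = 1.4e-10). The lowest L_C library of each exceeded the highest H_O library by over 2-fold.

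**Figure D3:**
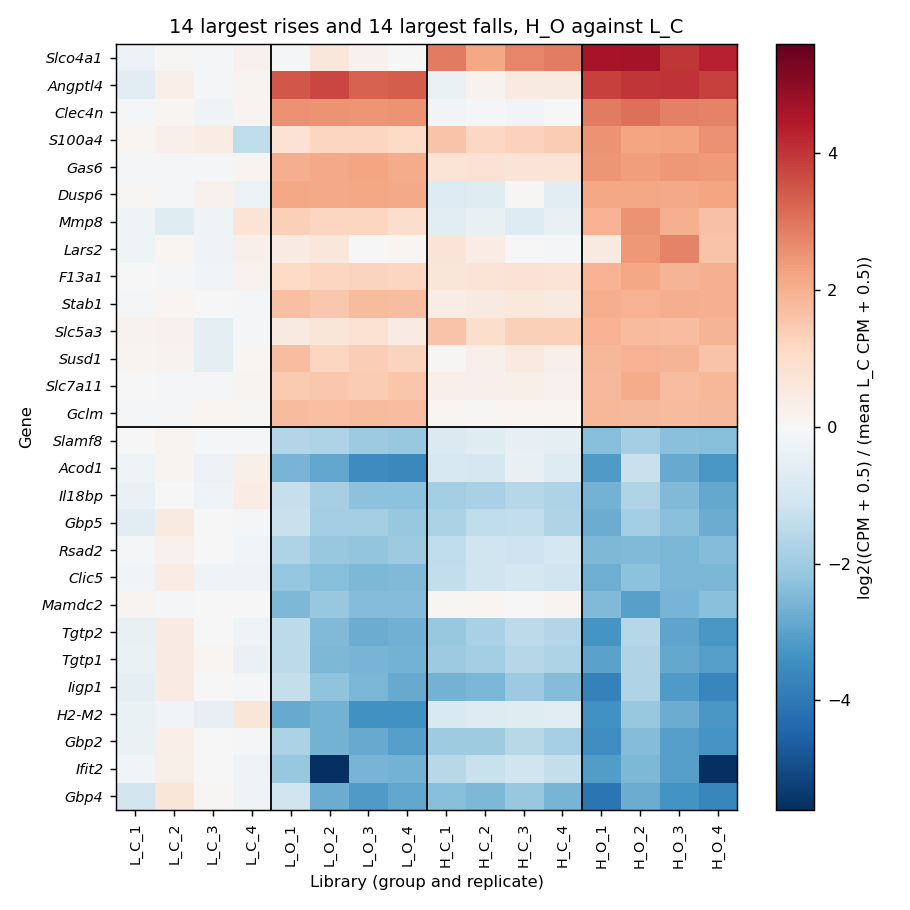
Rows are the 14 largest rises (top) and 14 largest falls (bottom), columns the 16 libraries, and colour the log2 ratio of CPM to the L_C mean, each with 0.5 CPM added. Slco4a1 is raised in H_C and more in H_O, Angptl4 and Clec4n in both groups with ox-LDL, and most falls are visible in L_O, H_C and H_O, while Mamdc2 is near the L_C level in H_C.

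Genes of osmotic stress moved in both directions. Among 18 tested genes of the osmotic stress list, known targets of NFAT5 and related genes, 8 (44.4%) were higher and 5 (27.8%) lower, at a median log2 change of 0.19, where 14.5% and 16.1% of all entries were higher and lower. Slc6a12, the betaine transporter (chromosome 6, 121343076 to 121365775), went from 1.56, 0.691, 0.622 and 1.26 CPM to 16.2, 22.8, 13.2 and 14.4 CPM, a log2 change of 4.01 ± 0.27 (adjusted p = 1.92e-09). Slc5a3, the sodium and myo-inositol cotransporter (chromosome 16, 92058322 to 92087473), went from 6.74, 7.08, 4.03 and 5.51 CPM to 23.7, 21.02, 20.6 and 23.4 CPM, a log2 change of 1.93 ± 0.16 (adjusted p = 2.79e-08). Slc38a2, a neutral amino acid transporter, went from 153, 138, 131 and 146 CPM to 274, 275, 272 and 276 CPM, a log2 change of 0.95 ± 0.048 (adjusted p = 6.25e-11). In each of the 3 the groups did not overlap. Against L_C, high glucose alone, with mannitol also left out, gave log2 changes of 3.48 for Slc6a12, 1.41 for Slc5a3 and 0.80 for Slc38a2. Ox-LDL alone, by its label also without mannitol, gave 0.41 (adjusted p = 0.323), 0.68 (adjusted p = 0.00342) and 0.35 (adjusted p = 1.82e-05). The 8 that rose also held Slco4a1, the taurine transporter gene Slc6a6, the aldose reductase gene Akr1b3, the aquaporin gene Aqp9 and the chemokine gene Ccl2, while Sgk1, Hspa4l, Hspa1a, Nos2 and Ptgs2 fell.

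Genes known to respond to glucose moved in both directions. Of 15 tested genes of the glucose and hexosamine list, 5 (33.3%) were higher and 4 (26.7%) lower, against 14.5% and 16.1% of all entries. Txnip (15.7% of its 50-base stretches shared with other transcripts), the thioredoxin-interacting protein gene that glucose induces through ChREBP and MondoA, was at 156, 170.3, 180.3 and 154 CPM in L_C and 175, 169, 168 and 179.7 CPM in H_O. The groups overlapped and the log2 change was 0.066 ± 0.050 (adjusted p = 0.352). With no scaling beyond library totals, which shifts all entries upwards, it was 0.17 and called (adjusted p = 0.0258). Against L_C its means moved in opposite directions in the single treatments, 0.21 with high glucose (adjusted p = 0.00888) and -0.24 with ox-LDL (adjusted p = 0.00133). Its relative Arrdc3 fell from 21.4, 24.8, 26.1 and 18.5 CPM to 8.01, 6.20, 7.82 and 5.41 CPM, a log2 change of -1.73 ± 0.15 (adjusted p = 4.98e-08). Akr1b8, an aldose reductase-like enzyme gene, rose by 0.79 ± 0.075 and Klf10, a Krüppel-like factor, by 0.53 ± 0.077, while Mlxip, the gene of MondoA, had a log2 change of -0.33 ± 0.058 and was lower.

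Of 25 tested glycolysis genes, 8 (32%) were higher, against 14.5% of all entries, and 4 (16%) lower, the share among all entries being 16.1%. Their median log2 change was 0.091. Pkm, pyruvate kinase, rose from 979.5, 959, 985 and 874 CPM to 1725, 1807, 1767 and 1700 CPM, a log2 change of 0.88 ± 0.043 (adjusted p = 4.33e-11). Eno1 (enolase) rose from a mean of 273 ± 20.2 to 404 ± 6.33 CPM (SD, n = 4), a log2 change of 0.56, and Aldoa (aldolase) rose by 0.24. In Pkm and Eno1, 25.8% and 26% of the 50-base stretches recur in other transcripts, so their counts are less certain. Hk3, a hexokinase, was lower, at 1040, 1073, 1031 and 748 CPM in L_C and 623, 662, 661 and 629 CPM in H_O, a log2 change of -0.59 ± 0.078 (adjusted p = 9.67e-06). L_C replicate 4 was closest to the H_O libraries, and the change without it was -0.70.

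Receptors for modified lipoproteins moved in both directions. Of 16 tested scavenger and lipoprotein receptor genes, 7 (43.8%) were higher and 4 (25%) lower, against 14.5% and 16.1% of all entries, at a median log2 change of 0.094. Cd36, a major receptor for ox-LDL (chromosome 5, 17781690 to 17888801), rose from 1740, 1774, 1985 and 1611 CPM in L_C to 4599, 3852, 4188 and 4422 CPM in H_O. Every H_O library was far above every L_C library, and the log2 change was 1.26 ± 0.058 (adjusted p = 1.65e-11). Stab1, the scavenger and clearance receptor stabilin-1 (chromosome 14, 31139013 to 31168641), rose from 68.5, 76.2, 72.7 and 68.3 CPM to 291, 276, 290.5 and 284 CPM, a log2 change of 2.00 ± 0.057 (adjusted p = 4.09e-14). Msr1, scavenger receptor A, was at 314, 351, 361 and 389.7 CPM and 424, 444, 401 and 404 CPM, a small rise of 0.24 ± 0.059 (adjusted p = 0.00406) with groups that only just did not overlap. Mrc1, the mannose receptor, rose by 0.77 ± 0.047 and Scarb2, a lysosomal membrane receptor, by 0.54 ± 0.045. Olr1, the ox-LDL receptor LOX-1, fell at low levels, with 1.23, 1.99, 3.67 and 3.17 CPM in L_C and 0.448, 1.10, 1.15 and 1.25 CPM in H_O. The lowest L_C library overlapped the H_O range and the log2 change was -1.34 ± 0.33 (adjusted p = 0.0045). The other calls were Colec12, higher, and Marco, Scarb1 and Cxcl16, lower. Cd163, the haemoglobin scavenger receptor, which was chosen after its values were seen, rose from 0.674, 0.608, 0.888 and 1.08 CPM to 1.74, 1.18, 1.47 and 2.39 CPM, by 1.06 ± 0.31 (adjusted p = 0.0145), and without H_O replicate 4 by 0.84 (adjusted p = 0.0646).

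Lipid droplet and PPAR target genes moved in both directions. Of 23 tested, 9 (39.1%) were higher and 8 (34.8%) lower, against 14.5% and 16.1% of all entries, at a median log2 change of 0.010 (0.12 without L_C replicate 4). Cpt1a and Slc25a20, which carry fatty acids into mitochondria, were among those that rose, and the lipase genes Mgll, Lipe and Pnpla2 among those that fell. Plin2, the main coat protein of macrophage lipid droplets (chromosome 4, 86648386 to 86670060), rose from 885, 868, 931 and 688 CPM to 1547, 1450, 1592 and 1550 CPM, a log2 change of 0.86 ± 0.066 (adjusted p = 1.12e-08). Cpt1a, which carries fatty acids into mitochondria (chromosome 19, 3322334 to 3385733), rose from 113, 114, 112 and 127 CPM to 302, 291, 306 and 288 CPM, a log2 change of 1.35 ± 0.046 (adjusted p = 4.8e-13). The H_O libraries of both were well apart from L_C. Mgll, monoglyceride lipase (chromosome 6, 88724412 to 88828360), fell from 241, 225, 214 and 206 CPM to 78.96, 74.5, 78.9 and 82.2 CPM, a log2 change of -1.49 ± 0.052 (adjusted p = 6.64e-13). Fabp4, a fatty acid binding protein and PPAR target, fell from 314 ± 15.6 to 188 ± 5.81 CPM (mean, SD, n = 4), a log2 change of -0.74 ± 0.045 (adjusted p = 7.68e-10).

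Targets of LXR moved in both directions. Of 14 tested, 6 (42.9%) were higher and 4 (28.6%) lower, against 14.5% and 16.1% of all entries, at a median log2 change of -0.010 that was above 0 with no scaling and with upper-quartile scaling. Abca1, the transporter that loads cholesterol onto apolipoprotein A-I (chromosome 4, 53030787 to 53159895), was at 154, 159, 184 and 186 CPM in L_C and 152, 159.7, 159 and 147 CPM in H_O. The groups overlapped and the log2 change was -0.15 ± 0.064 (adjusted p = 0.0957), which became -0.19 and was called without L_C replicate 1 (adjusted p = 0.0297). Abcg1, the exporter to high-density lipoprotein, was slightly lower, at 262, 261, 269.8 and 257 CPM against 211, 211, 211 and 211 CPM, a log2 change of -0.32 ± 0.039 (adjusted p = 5.86e-06). Mylip, a ubiquitin ligase induced by LXR, rose from 35.1 ± 2.09 to 56.5 ± 1.80 CPM (mean, SD, n = 4), a log2 change of 0.69 ± 0.054 (adjusted p = 1.58e-08). Lpl, lipoprotein lipase, fell from 933, 950.4, 1415 and 822 CPM to 452, 296, 419.5 and 490.0 CPM, a log2 change of -1.31 ± 0.14 (adjusted p = 1.29e-06), with a wide spread among the L_C libraries. Scd2, a fatty acid desaturase, fell from 118, 106, 164 and 123 CPM to 53.8, 55.5, 55.4 and 52.2 CPM, a log2 change of -1.24 ± 0.10 (adjusted p = 4.56e-08).

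Cholesterol synthesis and uptake genes fell together. Of 24 tested targets of SREBP2, 20 were lower and none higher, against 16.1% and 14.5% of all entries, at a median log2 change of -0.64 (-0.61 without L_C replicate 4). Insig1, which holds SREBP factors back in the endoplasmic reticulum (chromosome 5, 28071363 to 28078662), fell from 111, 119.9, 114 and 111 CPM to 69.2, 69.6, 67 and 66.8 CPM, a log2 change of -0.74 ± 0.048 (adjusted p = 1.32e-09). Msmo1, a sterol methyl oxidase (chromosome 8, 64718139 to 64733792), fell from 121, 122, 139 and 133 CPM to 74.5, 69.9, 70.5 and 74.4 CPM, a log2 change of -0.83 ± 0.047 (adjusted p = 2.24e-10). In both genes every H_O library lay under every L_C library. The 4 members not called were Pmvk, Ebp, Tm7sf2 and Acat2, with log2 changes from -0.082 to 0.044.

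The antioxidant response rose almost throughout. Of 26 tested targets of NRF2, 23 were higher and none lower, against 14.5% and 16.1% of all entries, at a median log2 change of 0.86 (0.79 without L_C replicate 4, with 25 higher). Gclm, the modifier subunit of the enzyme that starts glutathione synthesis (chromosome 3, 122245557 to 122270732), rose from 46.02, 45.96, 53.5 and 52.2 CPM to 178, 176, 171 and 175 CPM, a log2 change of 1.82 ± 0.050 (adjusted p = 3.61e-14). Slc7a11, which imports cystine for glutathione (chromosome 3, 49892526 to 50443614), rose from 43.4, 41.04, 40.6 and 48.2 CPM to 154, 185, 146 and 159.5 CPM, a log2 change of 1.89 ± 0.069 (adjusted p = 9.8e-13). In both genes the lowest H_O library was about 3-fold above the highest L_C library. Abcc1, an exporter of glutathione conjugates, rose by 1.36 ± 0.058, and Hmox1, which breaks down haem, rose from 261, 253, 274 and 323 CPM to 547, 559, 599.6 and 540.3 CPM, by 1.02 ± 0.060 (adjusted p = 4.5e-10). Pgd, an NADPH-making enzyme of the pentose phosphate pathway (chromosome 4, 149149991 to 149166771), rose from 324 ± 12.4 to 545 ± 7.38 CPM (mean, SD, n = 4), a log2 change of 0.75 ± 0.039 (adjusted p = 7.52e-11). Nqo1, a quinone reductase named after its values were seen, rose from 1.75, 1.52, 1.09 and 1.47 CPM to 4.69, 3.42, 3.49 and 5.39 CPM, by 1.54 ± 0.24. The 3 members not called were Fth1, Sqstm1 and Gsto1, with log2 changes of 0.028, 0.11 and 0.12.

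The promoter of Gclm is shown because, among list members whose promoter holds the letters of the NRF2 element, this gene had the smallest adjusted p. It runs from 250 bases before to 50 after the start in RefSeq (GRCm38.p6), 5′ to 3′ on the gene's strand, at chr3:122245307-122245606 (plus strand). Capitals mark the match to TGACNNNGC, searched on both strands.
Gclm: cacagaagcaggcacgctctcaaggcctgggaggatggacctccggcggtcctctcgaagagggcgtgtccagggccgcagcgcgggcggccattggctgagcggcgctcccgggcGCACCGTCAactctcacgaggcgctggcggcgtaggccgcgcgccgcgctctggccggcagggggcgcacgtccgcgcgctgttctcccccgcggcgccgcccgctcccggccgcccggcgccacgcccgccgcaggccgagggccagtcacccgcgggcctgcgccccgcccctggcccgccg
Counted from 1 at the 5′ end, the match begins at base 117, which is 134 bases before the start, and is read on the other strand. Pgd, the next such gene by adjusted p, is not shown, because its match begins 3 bases after 1 of 2 RefSeq starts, and that start lies inside the annotated gene. The letters stood in 4071 of 32851 promoters (12.4%), in 17% of the 9858 tested genes that were matched by symbol and in 7 of 20 matched NRF2 targets, Pgd among them. Some matches also hold the AP-1 element TGACTCA. A match is a description of these bases and no site of binding.

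Interferon-stimulated genes fell almost throughout. Of 32 tested, 29 were lower and none higher, against 16.1% and 14.5% of all entries, at a median log2 change of -0.95 (-0.89 without L_C replicate 4). Rsad2, the antiviral enzyme viperin (chromosome 12, 26442746 to 26456452), fell from 88.5, 109.8, 91.9 and 82.9 CPM to 15.8, 16.5, 15.6 and 17.1 CPM, a log2 change of -2.52 ± 0.11 (adjusted p = 9.9e-12). Oas3, a sensor of double-stranded RNA (chromosome 5, 120753098 to 120777661), fell from 155, 178, 178 and 136 CPM to 51.4, 53.8, 54.2 and 45.3 CPM, a log2 change of -1.66 ± 0.077 (adjusted p = 2.25e-11). Both had H_O libraries close together and far under L_C. Ifit2, a binder of viral RNA (chromosome 19, 34550694 to 34576419), was at 149.9, 209, 167 and 139 CPM in L_C and 18.4, 28.4, 19.03 and 0.911 CPM in H_O. H_O replicate 4 was far lower than the rest of its group, and so was L_O replicate 2, at 1.07 CPM against a group mean of 23.02, so the log2 change of -3.32 ± 0.66 (adjusted p = 0.000745) has a wide error. By limma's voom it was -4.13. Ifit3 had a log2 change of -2.26 ± 0.17, although 51.2% of its 50-base stretches also occur in other transcripts, and Cmpk2, a mitochondrial nucleotide kinase gene, one of -1.54 ± 0.12. The 3 members not called were Mx2, Oas1g and Bst2, at -0.85, -0.22 and -0.23.

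The promoters of Rsad2 and Oas3 are shown because, among interferon-stimulated genes whose promoter holds the letters of the interferon response element, these had the smallest adjusted p. They are from RefSeq (GRCm38.p6), at chr12:26456403-26456702 (minus strand) for Rsad2 and chr5:120777610-120777909 (minus strand) for Oas3, and capitals mark the match to 2 copies of GAAA with any 2 bases between them, searched on both strands.
Rsad2: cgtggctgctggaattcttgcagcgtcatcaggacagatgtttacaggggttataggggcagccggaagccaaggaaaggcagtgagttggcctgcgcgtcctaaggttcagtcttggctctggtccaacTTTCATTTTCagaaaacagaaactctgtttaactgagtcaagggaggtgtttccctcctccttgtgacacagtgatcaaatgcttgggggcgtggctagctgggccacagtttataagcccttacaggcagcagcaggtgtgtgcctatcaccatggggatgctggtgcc
Oas3: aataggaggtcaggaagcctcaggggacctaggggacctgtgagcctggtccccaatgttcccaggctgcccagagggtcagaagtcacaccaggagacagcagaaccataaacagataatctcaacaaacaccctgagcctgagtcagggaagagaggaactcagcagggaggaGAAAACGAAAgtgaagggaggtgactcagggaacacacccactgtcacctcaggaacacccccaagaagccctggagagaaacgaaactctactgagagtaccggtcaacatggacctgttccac
The match begins at base 131 in Rsad2, where it is read on the other strand, and at base 176 in Oas3. This pattern stood in 1131 of 32851 promoters (3.44%), in 4.03% of the 9858 tested genes that were matched and in 15 of 23 matched interferon-stimulated genes. It overlaps the sequences bound by the IRF family.

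Guanylate-binding proteins and immunity-related GTPases, which attack the vacuoles of pathogens inside cells and are induced by interferon gamma, had the lowest median of the pathway lists followed. All 18 tested members were lower, 17 of them by at least 2-fold, at a median log2 change of -1.88 (-1.82 without L_C replicate 4), against 16.1% of all entries lower and 3.16% lower by that size. Gbp2 (chromosome 3, 142620602 to 142638008) fell from 256, 435, 324 and 322 CPM to 29.6, 62.1, 38.4 and 33.7 CPM, a log2 change of -3.03 ± 0.27 (adjusted p = 7.15e-08), or 8.16-fold. Gbp4 fell from 10.9, 36.5, 23.9 and 19.3 CPM to 0.843, 2.89, 1.80 and 1.33 CPM, a log2 change of -3.72 ± 0.49 (adjusted p = 1.05e-05). The L_C libraries differed by over 3-fold among themselves in Gbp4, yet none came near H_O. Gbp3 had a log2 change of -2.04 ± 0.13 and Gbp5 one of -2.51 ± 0.26. Iigp1, the best known of the immunity-related GTPases, fell from 62.8, 126, 90.9 and 85.8 CPM to 6.08, 28.1, 9.73 and 6.92 CPM, a log2 change of -2.85 ± 0.41 (adjusted p = 3.26e-05). H_O replicate 2 was high for its group, and without it the change was -3.59. Tgtp1 and Tgtp2, near-identical T-cell specific GTPases (81.2% and 86.6% of the 50-base stretches found elsewhere too), had log2 changes of -2.70 ± 0.35 and -2.64 ± 0.36, and of -3.22 and -3.24 without H_O replicate 2. Gvin1, which shares 99.2%, is uncertain for the same reason, and its log2 change was -1.88 ± 0.16. Gbp8, at -1.88 ± 0.18, has a locus that spans Gbp4 on the same strand. Il18bp, the secreted trap of interleukin 18 and also an interferon gamma target, fell from 73.3, 96.6, 78.99 and 127 CPM to 14.6, 28.8, 16.6 and 12.3 CPM, a log2 change of -2.38 ± 0.25 (adjusted p = 8.49e-07).

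Genes of antigen presentation fell. Of 14 tested MHC class II genes 10 (71.4%) were lower, against 16.1% of all entries, and 1 higher, at a median log2 change of -1.20 (-1.17 without L_C replicate 4), and of 20 tested MHC class I genes 19 were lower and none higher, at a median of -0.73 (20 lower and -0.80 without it). H2-Aa, a class II alpha chain (chromosome 17, 34282744 to 34287823), fell from 899.8, 1129, 881 and 1037 CPM to 171, 375, 214 and 158 CPM, a log2 change of -2.10 ± 0.22 (adjusted p = 6.01e-07). Cd74, the invariant chain that guides class II molecules, fell from 2923, 3430, 2715 and 4205 CPM to 903, 1582, 1121 and 888 CPM, a log2 change of -1.56 ± 0.16 (adjusted p = 4.94e-07). H_O replicate 2 was the highest of its group for both. The log2 change of H2-Eb1, a class II beta chain, was -2.11 ± 0.23 and that of H2-DMa, which helps load peptides, -1.39 ± 0.13. Cd80, a costimulatory ligand, was the 1 member that rose. Ciita, the master regulator of class II genes, named after its values were seen, fell from 40.7, 58.04, 43.9 and 43.6 CPM to 12.6, 29.1, 17.4 and 11.03 CPM, a log2 change of -1.41 ± 0.23 (adjusted p = 0.000138).

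In class I, the non-classical H2-M2 (chromosome 17, 37480851 to 37483552) fell most, from 16.4, 19.6, 15.4 and 34.8 CPM to 1.61, 4.60, 2.70 and 1.82 CPM, a log2 change of -3.01 ± 0.31 (adjusted p = 6.47e-07). L_C replicate 4 was its highest library, and the change without it was -2.68. Tapbp (tapasin), which loads peptides on class I, fell from 723, 768, 691 and 669 CPM to 275, 384, 328 and 289 CPM, a log2 change of -1.16 ± 0.088 (adjusted p = 1.11e-08). The log2 changes of the class I genes H2-T24, H2-Q4 and H2-T22 were -0.65 ± 0.054, -1.13 ± 0.10 and -0.96 ± 0.085. H2-D1, a classical class I gene, was the 1 member not called, at -0.13 (adjusted p = 0.278). The values of Tapbp, H2-Q4 and H2-T22 are uncertain, since 23.2%, 36.4% and 53.5% of their 50-base stretches occur in other transcripts.

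**Figure D4:**
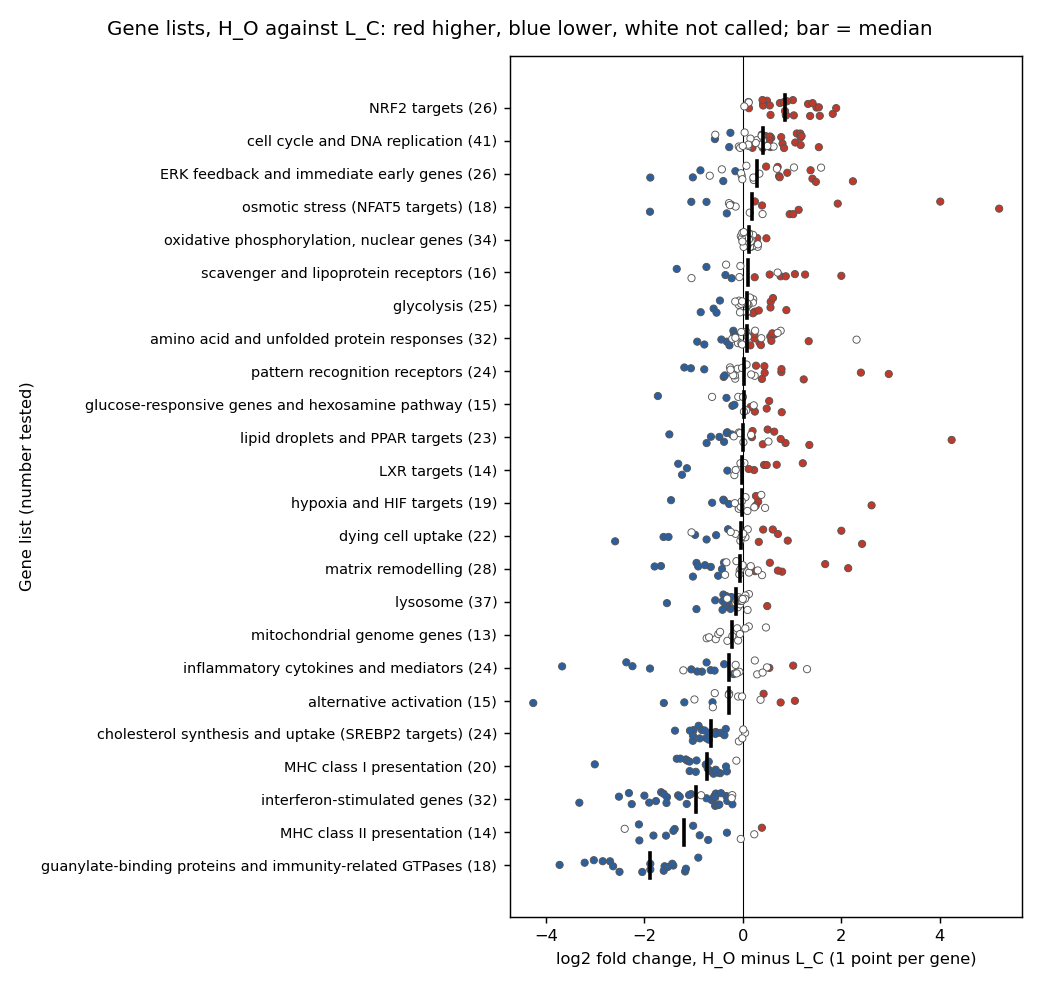
Each point is 1 tested gene of a list, placed by its log2 change, H_O minus L_C, and coloured red if higher, blue if lower and white if not called; the bar is the median of the list. NRF2 targets lie to the right, at a median of 0.86, and the GTPases to the left, at -1.88.

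More inflammatory mediators fell than rose. Of 24 tested, 12 (50%) were lower, against 16.1% of all entries, and 2 (8.33%) higher, against 14.5%, at a median log2 change of -0.29. Tnf, the cytokine TNF, was at 9.40, 11.03, 9.71 and 11.04 CPM in L_C and 8.93, 9.33, 11.1 and 7.88 CPM in H_O, overlapping groups with a log2 change of -0.15 ± 0.14 (adjusted p = 0.45). Il1b was near the limit of detection, at 0.306, 0.497, 0 and 0.309 CPM and 0, 0.342, 0.136 and 0 CPM, and was not called (adjusted p = 0.473). Il1a fell from 32.8, 37.4, 36.4 and 48.9 CPM to 23.2, 21.6, 22.8 and 25.7 CPM, a log2 change of -0.74 ± 0.11 (adjusted p = 3.87e-05). Ccl5, a chemokine that draws T cells, fell from 23.7, 25.7, 21.2 and 17.01 CPM to 11.2, 15.5, 12.5 and 10.1 CPM, a log2 change of -0.83 ± 0.13 (adjusted p = 8.45e-05). Ccl2, the main monocyte chemokine, rose from 3.31, 4.09, 10.0 and 4.86 CPM to 10.9, 11.9, 10.0 and 12.3 CPM, a log2 change of 1.02 ± 0.28 (adjusted p = 0.0101). Its L_C replicate 3 lay just under the lowest H_O library. Nfkbia, the inhibitor of NF-kB, rose by 0.54 ± 0.11 (adjusted p = 0.000825).

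Acod1, which makes the antimicrobial metabolite itaconate (chromosome 14, 103046977 to 103056573), fell from 170.3, 228, 161 and 252 CPM to 21.9, 85.96, 28.6 and 20.8 CPM, a log2 change of -2.37 ± 0.36 (adjusted p = 5.5e-05). H_O replicate 2 stood above the other H_O libraries, and without it the change was -3.09. Of genes named after their values were seen, the interferon-induced chemokine Cxcl9 fell from 0.857, 1.49, 1.21 and 1.57 CPM to 0, 0.158, 0.109 and 0.123 CPM and Cxcl10 from 1.23, 0.884, 1.15 and 0.721 CPM to 0.211, 0.158, 0.164 and 0.295 CPM. Their log2 changes were -3.67 ± 0.89 (adjusted p = 0.00341) and -2.24 ± 0.67 (adjusted p = 0.015). Nos2, the inducible nitric oxide synthase, was at 2.76, 4.53, 2.04 and 3.71 CPM and 0.369, 2.18, 0.627 and 0.344 CPM, a log2 change of -1.89 ± 0.64 (adjusted p = 0.0313) whose groups overlapped through H_O replicate 2. Without that library the change was -2.86 (adjusted p = 0.00299), while without L_C replicate 2 or H_O replicate 1, 3 or 4 it lost the call, at adjusted p from 0.0812 to 0.0910. Of the 15 tested genes of alternative activation, 3 (20%) were higher and 4 (26.7%) lower, where 14.5% and 16.1% of all entries were. Arg1 (arginase 1), also named after its values were seen, fell from 6.77, 7.79, 10.7 and 9.83 CPM to 2.40, 4.36, 2.83 and 1.92 CPM, a log2 change of -1.61 ± 0.29 (adjusted p = 0.000301). Il4ra, the interleukin 4 receptor, rose by 0.42 ± 0.050 and Tgm2, a transglutaminase, had a log2 change of -0.62 ± 0.081 and was lower.

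Several feedback inhibitors of ERK signalling rose, and immediate early genes went both ways. Of 26 tested genes of the list, 9 (34.6%) were higher and 5 (19.2%) lower, against 14.5% and 16.1% of all entries, at a median log2 change of 0.28. Dusp6, the phosphatase that switches off ERK (chromosome 10, 99263231 to 99267489), rose from 9.55, 8.76, 10.9 and 7.23 CPM to 43.3, 43.1, 40.9 and 44 CPM, a log2 change of 2.23 ± 0.15 (adjusted p = 1.84e-09). Spred2, an inhibitor of RAF activation, rose from 10.9, 10.9, 12.4 and 15.5 CPM to 32.3, 31.7, 32.98 and 31.9 CPM, a log2 change of 1.37 ± 0.11 (adjusted p = 2.37e-08), and Spred1 by 0.73 ± 0.061. Egr2, a transcription factor, fell from 104, 108, 110.3 and 117 CPM to 53.3, 45.6, 56.3 and 62.4 CPM, a log2 change of -1.02 ± 0.074 (adjusted p = 6.24e-09). Egr1, named after its values were seen, fell from 8.14, 7.71, 7.04 and 14.2 CPM to 2.48, 2.60, 2.43 and 2.56 CPM, a log2 change of -1.88 ± 0.22 (adjusted p = 2.09e-06). L_C replicate 4 was high for Egr1, and the change without it was -1.60. Fos, another immediate early gene, which the naming rule did not take, rose by 1.41 (adjusted p = 4.99e-08).

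Receptors that sense microbes moved in both directions. Of 24 tested, 9 (37.5%) were higher and 5 (20.8%) lower, against 14.5% and 16.1% of all entries. Clec4d, the partner of dectin-2, rose from 319, 319.7, 309 and 269 CPM to 749.8, 742, 676 and 697 CPM, a log2 change of 1.24 ± 0.051 (adjusted p = 5.26e-12), beside the rise of Clec4n given above. Clec7a, the beta-glucan receptor dectin-1 (chromosome 6, 129461591 to 129472779), fell from 1667, 1767, 1664 and 1896 CPM to 767, 814, 758 and 726 CPM, a log2 change of -1.19 ± 0.048 (adjusted p = 4.32e-12). Nod1, a sensor of bacterial cell wall, rose from 40.6, 40.6, 40.1 and 34.2 CPM to 66.95, 74.4, 58.01 and 67.8 CPM, a log2 change of 0.78 ± 0.074 (adjusted p = 1.87e-07). No library of one group lay within the other for these genes. Ccr1, a receptor for inflammatory chemokines, rose from 74.6, 75.2, 85.6 and 87.3 CPM to 98.95, 116, 102 and 106 CPM, a log2 change of 0.39 ± 0.071 (adjusted p = 0.000363).

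Bridges and receptors for dying cells moved in both directions. Of 22 tested, 7 (31.8%) were higher and 7 (31.8%) lower, against 14.5% and 16.1% of all entries. Against the rise of Gas6, Mfge8, another bridging protein (chromosome 7, 79133768 to 79149060), fell from 546, 476, 496 and 539 CPM to 172, 153, 169 and 178 CPM, a log2 change of -1.61 ± 0.064 (adjusted p = 3.24e-12). Itgb3, a chain of the integrin that binds Mfge8, fell from 28.2, 24.98, 29.7 and 22.2 CPM to 8.19, 8.46, 11.1 and 9.13 CPM, a log2 change of -1.51 ± 0.11 (adjusted p = 4.01e-09). Timd4, a phosphatidylserine receptor, fell from 1.72, 1.63, 2.25 and 2.55 CPM to 0.395, 0.420, 0.327 and 0.197 CPM, a log2 change of -2.60 ± 0.37 (adjusted p = 2.73e-05).

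Among 28 tested matrix remodelling genes 6 (21.4%) were higher and 10 (35.7%) lower, and of 19 hypoxia genes 4 (21.1%) were higher and 5 (26.3%) lower. Among all entries these shares were 14.5% and 16.1%. Tgfbi, a secreted matrix protein, rose from 21.8, 32.2, 29.9 and 42.1 CPM to 87.5, 121, 106 and 88.4 CPM, a log2 change of 1.67 ± 0.15 (adjusted p = 6.34e-08). Mmp8 rose from 6.03, 4.34, 6.01 and 12.8 CPM to 29.5, 44.7, 30.9 and 23.9 CPM, a log2 change of 2.14 ± 0.25 (adjusted p = 2.79e-06) that was 2.56 without L_C replicate 4, the highest L_C library. Sdc1, the surface proteoglycan syndecan 1, fell from 339.6, 319.9, 291 and 217 CPM to 89.6, 88.7, 94.9 and 95.1 CPM, a log2 change of -1.66 ± 0.11 (adjusted p = 2.01e-09). Adam8 rose by 0.80 ± 0.050 and Plaur, the urokinase receptor, had a log2 change of -0.65 ± 0.049 and was lower. Vegfa, the vascular growth factor (chromosome 17, 46016993 to 46032369), fell from 154, 175, 166 and 189 CPM to 52.3, 71.3, 69.7 and 55.5 CPM, a log2 change of -1.46 ± 0.088 (adjusted p = 6.13e-10). P4ha2, a collagen prolyl hydroxylase, rose from 1.68, 1.85, 1.42 and 2.47 CPM to 13.7, 11.5, 9.89 and 10.5 CPM, a log2 change of 2.61 ± 0.19 (adjusted p = 6.1e-09). Ero1l rose by 0.31 ± 0.044 and Bnip3l had a log2 change of -0.39 ± 0.041 and was lower.

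A majority of the replication and cell cycle genes rose. Of 41 tested, 23 were higher and 3 lower, against 14.5% and 16.1% of all entries, at a median log2 change of 0.41 (0.43 without L_C replicate 4). E2f2, a factor that drives entry into S phase, rose from 13.8, 10.6, 8.91 and 10.5 CPM to 30.3, 35.4, 32.5 and 29.1 CPM, a log2 change of 1.54 ± 0.11 (adjusted p = 4.01e-09). Mcm2, part of the replicative helicase, rose from 12.1, 13.6, 13.7 and 10.9 CPM to 22.1, 19.8, 22.5 and 21.9 CPM, a log2 change of 0.78 ± 0.083 (adjusted p = 8.49e-07), and Mcm6 by 0.41 ± 0.053. Cdkn1a, the cell cycle inhibitor p21, fell from 53.5, 52.9, 61.5 and 56.3 CPM to 42.1, 33.2, 40.6 and 35.3 CPM, a log2 change of -0.57 ± 0.077 (adjusted p = 1.53e-05). The groups did not overlap for any of these 4 genes.

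Of 32 tested genes of the amino acid and unfolded protein responses 10 (31.2%) were higher and 8 (25%) lower, against 14.5% and 16.1% of all entries. Ddit3, the stress factor CHOP, fell from 32.7, 33.9, 42.3 and 32.6 CPM to 20.8, 17.6, 18.2 and 17.7 CPM, a log2 change of -0.93 ± 0.093 (adjusted p = 3.62e-07), and the stress factor gene Atf3 one of -0.78 ± 0.090. Phgdh, the first enzyme of serine synthesis, rose from 10.3, 8.04, 11.8 and 5.87 CPM to 22.97, 21.2, 21.9 and 24.6 CPM, by 1.34 ± 0.15 (47.8% of its 50-base stretches occur elsewhere), and Xbp1 by 0.34 ± 0.045. Of 37 tested lysosome genes 20 (54.1%) were lower and 1 (2.7%) higher, against 16.1% and 14.5% of all entries, at a median log2 change of -0.15, with 24 lower and 4 higher without L_C replicate 4 and 15 lower and 4 higher with no scaling. Atp6v0d2, a subunit of the proton pump, fell from 1177, 1143, 1148 and 1325 CPM to 658, 568, 603 and 663 CPM, a log2 change of -0.94 ± 0.053 (adjusted p = 2.12e-10). The log2 changes of Tfeb, the factor that drives lysosome genes, of Hexa, a hexosaminidase chain, and of Psap, prosaposin, were -0.56 ± 0.056, -0.36 ± 0.038 and -0.23 ± 0.027. Of 34 tested nuclear genes of oxidative phosphorylation 6 (17.6%) were higher, a share near the 14.5% of all entries, and none lower, against 16.1%, at a median log2 change of 0.12 that was 0.044 without L_C replicate 4. Cyc1, cytochrome c1, rose from 42.1, 50.9, 44.6 and 30.5 CPM to 54.5, 61.2, 59.8 and 58.2 CPM, by 0.48 ± 0.10, and by 0.35 without that library. Ndufs1, a complex I subunit, rose by 0.28 ± 0.075, and by 0.19 without it.

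Summed markers of several other cell types were lower in H_O. Over each list, markers of small peritoneal macrophages and monocytes gave 1921 to 2164 CPM in L_C and 1349 to 1461 CPM in H_O, with 2 of 18 tested members higher and 8 lower. Itgax and Clec12a, which fell, and Mrc1, which rose, were large parts of this sum. Their means were 767, 243 and 322 CPM in L_C and 291, 83.3 and 547 CPM in H_O, so the sum mostly follows a few genes. Large peritoneal macrophage markers gave 2703 to 2774 and 2691 to 2829 CPM, with 1 of 20 higher and 9 lower. Of 5, 11, 6, 2 and 8 tested markers of B cells, T and NK cells, neutrophils, eosinophils and dendritic cells, 1, 5, 3, 1 and 2 were lower and none higher. Without L_C replicate 4 the T and NK cell count was 3 and the dendritic cell count 4. Among all entries 16.1% were lower and 14.5% higher. B cell and dendritic cell markers, with 20% and 25% lower, were near that share for so few markers. Small and large macrophage markers had 44.4% and 45% lower and 11.1% and 5% higher. Sums of B cell markers were 114 to 161 and 83.5 to 93.2 CPM, of T and NK cell markers 10.5 to 15.7 and 5.69 to 8.54 CPM, of neutrophil markers 136 to 196 and 68.9 to 80.4 CPM and of eosinophil markers 14.9 to 21.9 and 4.76 to 6.08 CPM. The eosinophil sum was nearly all Siglecf, which alone gave 14.2 to 20.6 CPM in L_C and 4.70 to 5.72 CPM in H_O. Dendritic cell markers summed to 279 to 399 CPM in L_C and 229 to 260.0 CPM in H_O. Only the large macrophage, mast cell (0.153 to 0.884 and 0.541 to 0.894 CPM), mesothelial (115 to 168 and 83.7 to 162 CPM) and erythroid (15.3 to 18.9 and 9.02 to 17.6 CPM) sums overlapped between the groups. The part of these cells in the falls of interferon-induced, MHC class II and chemokine genes was not tested. No listed marker with an entry in the table was at 0 in all 8 libraries, but others had no entry. These were 5 of 12 B cell, 3 of 16 T and NK cell, 5 of 13 neutrophil and 7 of 11 mast cell markers. So were 5 of 9 eosinophil, 2 of 14 dendritic cell and 3 of 10 erythroid markers.

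Single markers moved in both directions. Itgax (CD11c), listed for small macrophages, fell from 777, 712, 796 and 782 CPM to 298, 256, 291 and 319 CPM, a log2 change of -1.40 ± 0.056 (adjusted p = 4.03e-12). Clec12a, an inhibitory lectin, fell from 225, 254, 247 and 248 CPM to 76.8, 94.9, 83.03 and 78.5 CPM, a log2 change of -1.55 ± 0.064. Ccr2, the monocyte receptor for Ccl2, named after its values were seen, fell from 9.28, 8.96, 8.52 and 5.56 CPM to 1.82, 2.71, 2.62 and 1.92 CPM, a log2 change of -1.83 ± 0.22 (adjusted p = 4.59e-06). The 2 members of the small macrophage list that rose were S100a4, by 2.45 ± 0.26, and Mrc1, by 0.77 ± 0.047. Of the large macrophage list, the clotting factor genes F10 and F5 had log2 changes of -1.24 ± 0.052 and -1.09 ± 0.13, and Itgam (CD11b) rose by 0.36 ± 0.054, with 66.3% of its 50-base stretches also found in other transcripts. Siglecf, an eosinophil and alveolar macrophage lectin, fell from 20.6, 16.9, 18.8 and 14.2 CPM to 5.72, 4.70, 4.83 and 5.71 CPM, a log2 change of -1.75 ± 0.13 (adjusted p = 6.49e-09). Cd3e, a chain of the T cell receptor complex, fell from 0.674, 1.13, 1.18 and 1.49 CPM to 0.474, 0.447, 0.327 and 0.271 CPM, a log2 change of -1.56 ± 0.39 (adjusted p = 0.00471).

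The groups with 1 addition placed the net change. By the labels mannitol was in L_C alone, so each change against L_C may also hold an effect of leaving it out. These comparisons share samples with the net comparison and with each other, so their values are set side by side only. Ox-LDL in low glucose gave 1623 higher (12%) and 1867 lower (13.8%) entries against L_C, and high glucose alone 679 higher (5.02%) and 1049 lower (7.75%). Adding ox-LDL in high glucose gave 1406 higher (10.4%) and 1556 lower (11.5%), and adding high glucose to ox-LDL 367 higher (2.71%) and 459 lower (3.39%). The median log2 change of NRF2 targets was 0.74 in L_O, 0.051 in H_C and 0.86 in H_O, each against L_C. For cholesterol synthesis genes these medians were -0.55, -0.22 and -0.64. For the GTPases they were -1.48, -1.30 and -1.88, for MHC class II genes -0.98, -0.84 and -1.20 and for interferon-stimulated genes -0.71, -0.51 and -0.95. For cell cycle genes they were 0.23, -0.063 and 0.41.

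Among single genes, Slco4a1 had group means of 0.653 ± 0.189, 0.859 ± 0.322, 6.96 ± 1.62 and 24.5 ± 4.95 CPM (SD, n = 4) in L_C, L_O, H_C and H_O. Against L_C, ox-LDL alone gave 0.39 ± 0.30 (adjusted p = 0.38) and high glucose alone 3.39 ± 0.26 (adjusted p = 4.57e-07). Its log2 change from H_C to H_O was 1.81 ± 0.21 (adjusted p = 4.05e-06). Gbp2 had means of 334 ± 74.3, 58.7 ± 25.6, 92.9 ± 14.8 and 40.95 ± 14.6 CPM, with log2 changes of -2.51 for ox-LDL and -1.85 for high glucose, each called. The further step from L_O to H_O was not called (adjusted p = 0.272). Cd74 had means of 3318 ± 663, 938 ± 118, 2057 ± 107 and 1124 ± 324 CPM, and the step from L_O to H_O was not called (adjusted p = 0.388). Mamdc2 and Gclm were called with ox-LDL alone, at -2.36 ± 0.12 and 1.76 ± 0.050. High glucose alone gave 0.10 ± 0.11 (adjusted p = 0.637) and 0.092 ± 0.050 (adjusted p = 0.246). S100a4 had means of 13.5 ± 6.10, 29.2 ± 3.47, 35.9 ± 4.89 and 73.5 ± 8.45 CPM, with log2 changes of 1.12 for ox-LDL (adjusted p = 0.00269) and 1.42 for high glucose (adjusted p = 0.00107). Tnf and Abca1, not called in the net comparison, were lower with high glucose alone, at -0.95 ± 0.14 (adjusted p = 0.000197) and -0.59 ± 0.064 (adjusted p = 1.32e-05).

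**Figure D5:**
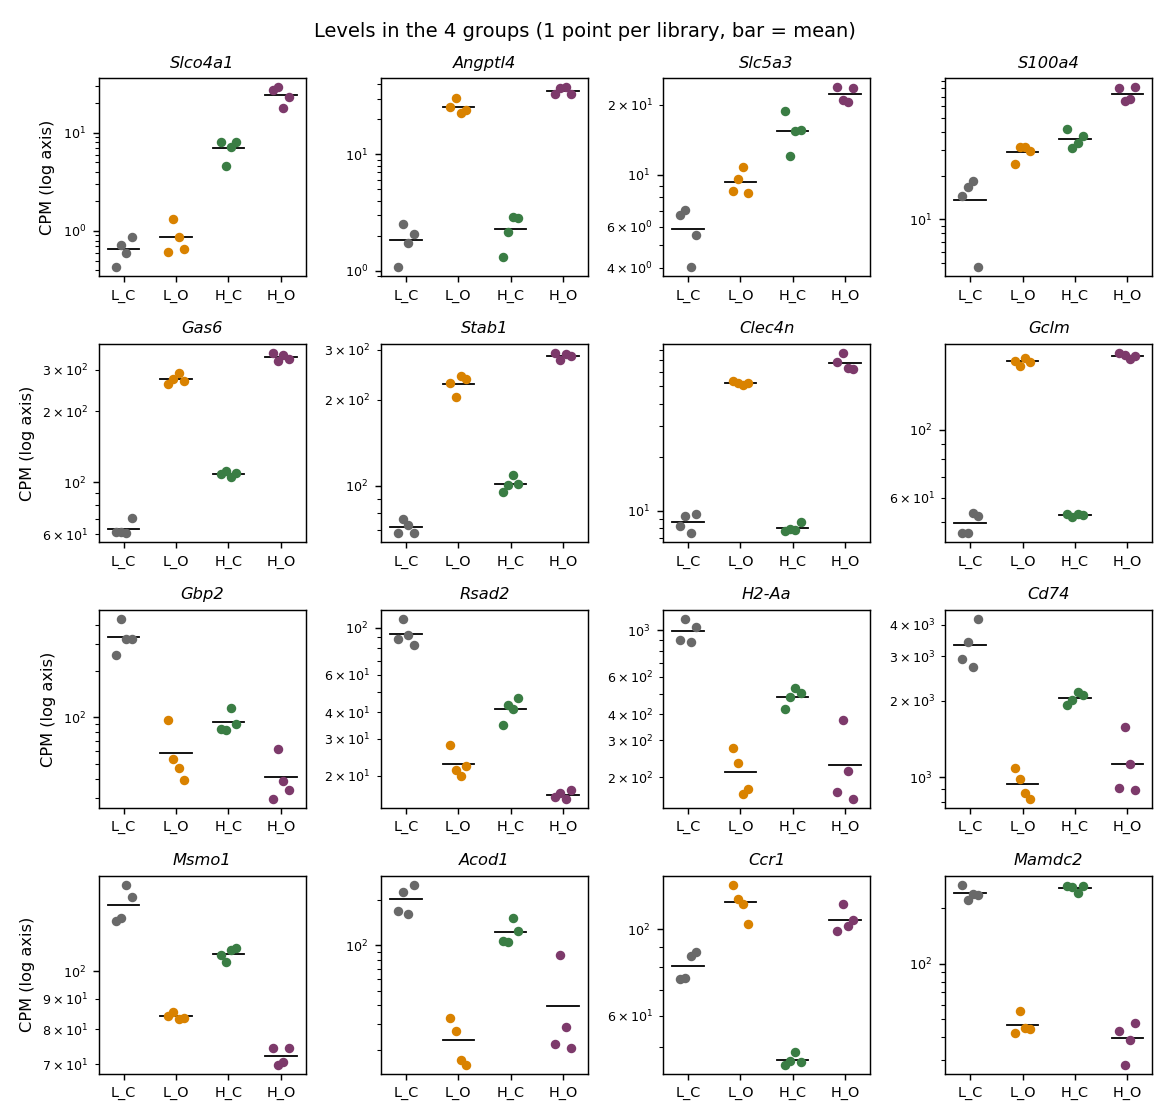
Each panel shows 1 gene in the 4 groups, with CPM on a log y axis, 1 point per library and a bar at the group mean. Slco4a1 rises in H_C and further in H_O, and Angptl4, Clec4n and Gclm rise with ox-LDL. Gbp2 and Rsad2 are lower in L_O, H_C and H_O than in L_C, Gbp2 falling from a mean of 334 CPM in L_C to 40.95 CPM in H_O.

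Whether the net change equalled the sum of the single changes was tested as the step from L_O to H_O minus the step from L_C to H_C, on the log2 scale. Only the L_C label names mannitol, so an effect of leaving it out would enter both single changes but the net change once. This test cannot tell such an effect from a departure. Departures passed the threshold for 2 of 13527 entries (0.0148%), 1 in each direction (0.00739% each), and 1161 had an unadjusted p under 0.05. Departures were above 0 for 18 of 18 GTPases (median 0.855), 14 of 14 MHC class II genes (0.842) and 28 of 32 interferon-stimulated genes (0.305). Among all entries 7031 of 13527 were above 0 (median 0.0084), and among NRF2 targets 12 of 26. The net falls in the former lists were mostly smaller than the sums, but no member passed the threshold and the lists were not tested. Every departure rests on the same 16 libraries, so the members of a list are no separate evidence. Gas6 rose less than the sum, with a departure of -0.46 ± 0.072 (adjusted p = 0.0381, 95% interval -0.61 to -0.31): ox-LDL alone gave 2.11, high glucose alone 0.77 and both 2.42 against L_C. Ccr1 ended above the sum, by 0.65 ± 0.10 (adjusted p = 0.0381, 95% interval 0.44 to 0.86). Its means were 80.7 ± 6.70, 117 ± 11.2, 46.3 ± 1.56 and 106 ± 7.50 CPM in L_C, L_O, H_C and H_O, and high glucose gave -0.80 ± 0.072 without ox-LDL (adjusted p = 2.26e-06) and -0.15 ± 0.071 beside it (adjusted p = 0.245). The number of departures moved with single libraries: without L_C replicate 4 it was 53, without L_C replicate 1 it was 21, without L_O replicate 1 it was 19 and without H_C replicate 3 it was 3, while without any other single library it was 0. For Slco4a1 the departure was 1.42 ± 0.37 (95% interval 0.65 to 2.20, adjusted p = 0.19) and did not pass. For Gclm it was -0.029 ± 0.069 (95% interval -0.17 to 0.12).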

How the data were processed

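RNA from 16 macrophage samples, 4 in each of 4 groups, was sequenced, and the authors deposited 1 table of whole-number read counts with 15871 entries, of which 1594 are unannotated regions. The submitters' processing notes name HISAT2, DESeq2 and the mm10 build, while the counting program, the gene annotation and the strand setting are not given in the sources used here, so reads of overlapping and antisense genes may be mixed.

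The counts were tested with edgeR 4.0.16 (R 4.3.3): TMM scaling, edgeR's expression filter (13527 entries kept, 2344 not tested), a quasi-likelihood fit of group means over all 16 libraries with 12 residual degrees of freedom, and the contrast H_O minus L_C. Calls were at a Benjamini-Hochberg adjusted p under 0.05 over all tested entries, and ± after a log2 change is its standard error. CPM used the TMM factors. Library totals of at least 32596640 make counting error small against the spread between samples for genes at high levels. This does not hold for genes at low counts, such as Cxcl9 and Il1b.

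The members and the gene lists (699 genes on 34 lists, 651 in the table and 619 tested) were chosen with earlier results of these data known. Genes were named if they were called at an average log2 CPM of at least 3, without overlap of libraries, and among the 14 largest rises or falls, if they were among up to 4 members of a list with the smallest adjusted p, up to 5 departures each way, or if they were fixed lipid and inflammation genes. Others with printed levels are said to be chosen after their values were seen. Further list members given only by direction or log2 change, such as Fos, Slc25a20, Lipe and Pnpla2, were not followed over the alternatives. Some genes that the rule takes are not reported here. Positions are from GENCODE vM21 (mm10), and promoter sequences from RefSeq. Shared 50-base stretches were counted over all annotated transcripts on either strand, and also concern Tgm2 (18.7%), Bnip3l (20.8%), Gbp8 (18.1%) and Hexa (10.6%). Alternatives were DESeq2 1.42.0, limma 3.58.1 voom, other scalings and filters, a replicate block, fewer libraries and leaving out each L_C and H_O library (for departures, each of the 16). The code was tested on simulated data.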

Additional observations from a re-analysis of the deposited data

Results flagged for a closer look

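Among 270 groups of 4 libraries examined for the genes and library measures followed, 21 held a library whose gap to its nearest neighbour, divided by the range of the group, was above Dixon's critical value at 95%. Chance gives about 1 in 20 groups.

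L_C replicate 4 was the library set apart in 9 of them. Its ribosomal protein share of 1.39% lay under the 1.77 to 1.81% of the other L_C libraries. Its mt-Nd5 level was 4262 CPM against 1255 to 1408, and its mt-Nd6 level 1023 CPM against 287 to 334. Higher than in the other L_C libraries were Cpt1a (127 CPM), Gas6 (70.5 CPM), H2-T24 (128 CPM) and the immediate early gene Egr1 (14.2 CPM), and lower were Hk3 (748 CPM) and Nod1 (34.2 CPM). L_C replicate 3 stood out in Adam8 (365.5 CPM) and Ddit3 (42.3 CPM), both high, and in Susd1 (3.73 CPM), low. L_C replicate 2 was high in Clic5, at 68.0 CPM.

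H_O replicate 2 was high in 6 genes known to be induced by interferon gamma or in inflammation, with Acod1 at 86.0 CPM against 20.8 to 28.6 in the other H_O libraries, Iigp1 at 28.1 CPM against 6.08 to 9.73, Tgtp2 at 22.9 CPM against 6.64 to 8.72, Tgtp1 at 6.83 CPM, Slamf8 at 62.6 CPM and Nos2 at 2.18 CPM. Without it, the falls of these genes in H_O were larger. It was low in Bnip3l, at 238 CPM. H_O replicate 3 was high in Aldoa, at 963 CPM.

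The effect of high glucose differed with and without ox-LDL for Ccr1 and Gas6, by edgeR's test of the difference itself, with departures of 0.65 and -0.46 on the log2 scale. Neither passed by limma-voom (adjusted p = 0.0553 for both), with a replicate block (0.137 for both) or without most single libraries. Both passed by DESeq2 (adjusted p = 4.35e-06 for Gas6 and 6.37e-06 for Ccr1), by limma-voom with array quality weights and under the other scalings and filters. Without L_C replicate 4 both passed too by edgeR (adjusted p = 0.000187 and 0.00963). Over the alternatives run the departures stayed at 0.59 to 0.70 for Ccr1 and -0.51 to -0.43 for Gas6. The mannitol named for L_C alone enters this test too.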

How the results depend on the processing

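With no scaling beyond library totals, 3389 entries were higher, against 1955 with TMM scaling, and 1555 were lower, against 2174. Under the other scalings, filters and tools with all libraries, 1905 to 2296 were higher and 1963 to 2394 lower. Leaving out each L_C and H_O library in turn gave 1683 to 2231 higher and 1911 to 2330 lower entries. With only the 8 compared libraries 1411 were higher and 1729 lower, and 2034 and 2213 when L_C replicate 4 was left out of them.

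Departures from the sum of the single changes numbered 95 by DESeq2, 0 by limma-voom (1190 at an unadjusted p under 0.05) and 75 by limma-voom with array quality weights, which was added after seeing the data, against 2 by edgeR. Leaving out each library gave 0 to 53, with 956 to 1307 at an unadjusted p under 0.05 where none was called. The cause was not tested.

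Same-numbered L_C and H_O libraries did not deviate together (correlations of -0.20, 0.15, -0.053 and 0.022), and not every library correlated best with its own number. No pairing by number was detected, but so few weak correlations cannot show that same-numbered samples share no source. A replicate block gave 1937 higher and 2125 lower entries and 0 departures (1099 at an unadjusted p under 0.05).

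Of 132 genes followed, 126 were called, and 121 of these kept call and direction under every alternative run. Ndufs1 lost the call with only the 8 libraries (adjusted p = 0.0618), Olr1 with these 8 without L_C replicate 4 (0.0501), and Nos2 and Cd163 as given above. Cx3cr1, chosen after its values were seen, had a log2 change of -2.28 ± 0.77 (adjusted p = 0.0303). It lost the call with the block (0.0576) and in 4 of the leave-outs. Of the 6 not called, 4 gained a call: Abca1 and Txnip as given above, mt-Nd5 under 3 alternatives and mt-Nd6 under 5. None reversed. The list medians of LXR targets, dying cell uptake, hypoxia and matrix genes changed sign under some scaling. Genes under about 1 CPM, such as Cxcl9 and Il1b, are limited by depth.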
